A study of Arabidopsis thaliana with 18 samples.

Results

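The class III homeodomain-leucine zipper (HD-ZIP III) family of Arabidopsis thaliana has 5 members, PHB (AT2G34710), PHV (AT1G30490), REV (AT5G60690), ATHB8 (AT4G32880) and ATHB15 (AT1G52150), and all 5 are described here out of 27444 nuclear protein-coding genes. Membership of the family, not a measured value, defines them, and the family was picked with earlier results of these data known. Each gene was represented by the 1 peak per histone mark with the longest overlap, if that was 150 bp or more.

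HD-ZIP III proteins are transcription factors that join a DNA-binding homeodomain and leucine zipper to a lipid-binding START domain. They set the upper (adaxial) side of leaves, help to form and maintain the shoot meristem, and pattern the vascular tissue. Their transcripts are cleaved through the microRNAs miR165 and miR166, and their proteins are held inactive by the small LITTLE ZIPPER proteins. KANADI transcription factors set the opposite, abaxial side. H3K4me3 marks the starts of genes in use, and H3K27me3 is the mark of Polycomb-repressed genes.

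Chromatin came from tissue enriched for the shoot apical meristem, from plants raised for 5 weeks at 21 °C with 8 h of light and 16 h of dark. The wild type (WT) was compared with chr4 plants, which are mutant for CHR4, also named PKR1, a CHD-type chromatin remodeller. The labels gave no allele, and 3 biological replicates were listed for each genotype with each of 3 antibodies, against H3K27me3, H3K4me3 and histone H3. The tables analysed here gave 1 value per peak for each of 2 pools, named control and treat, and no source used here says which pool was the mutant. Every ratio is therefore of treat over control, with no replicate error, and no test across replicates could be made.

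Total signal, the authors' value for a pool over a peak, has no stated unit, and its depth is unknown. A peak was called at an FDR under 0.05 in the authors' deposited table together with a difference of 1.5-fold or more in total signal. The sources used here do not say how that FDR was made. The mutated gene itself could not tell the pools apart, since the H3K4me3 peak of CHR4 had 25726 (control) and 24676 (treat), and CHR4 took no H3K27me3 peak.

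The 5 genes carried the marks in an either-or pattern. PHB, PHV, REV and ATHB15 each had 1 H3K4me3 peak and no H3K27me3 peak touching the gene. ATHB8, which is expressed in the procambium and promotes vascular differentiation, had 2 H3K27me3 peaks in its body and no H3K4me3 peak. For ATHB8 the nearest H3K4me3 peak lay 6770 bp away. Across all protein-coding genes, 55.2% had H3K4me3 only, 21.4% H3K27me3 only, 3.36% both and 20.1% neither. In tissue of many cell types, a mark in fewer cells and less of it in each cell cannot be told apart.

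**Figure D1:**
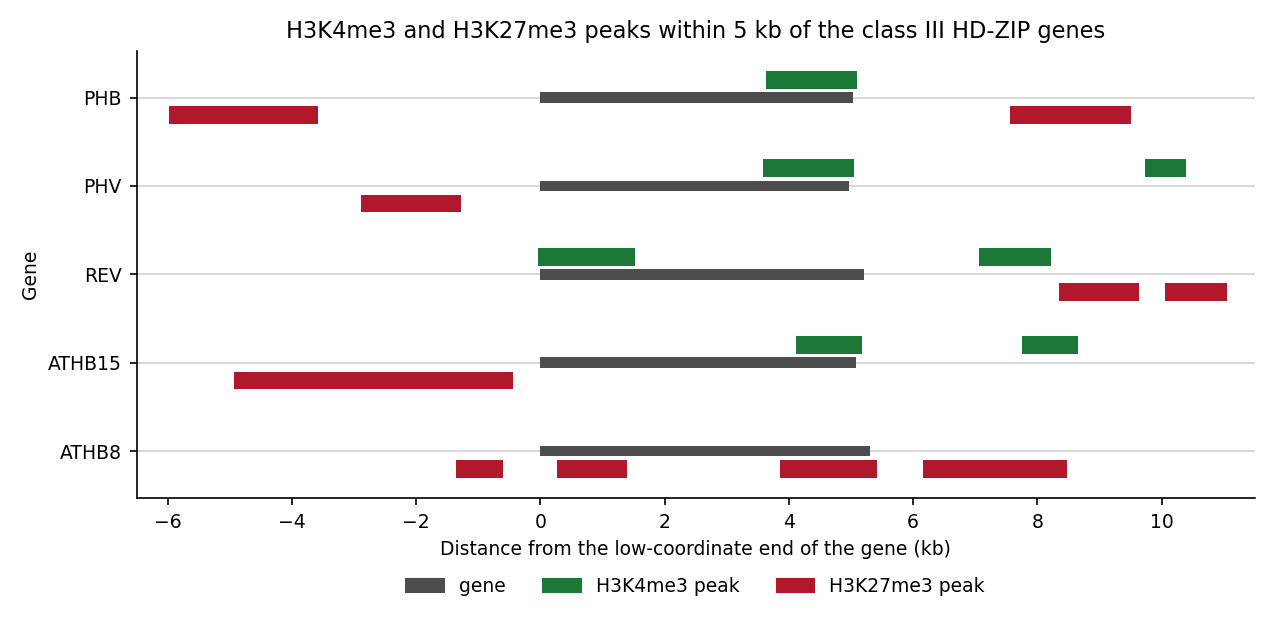
Peaks of H3K4me3 (green) and H3K27me3 (red) in or within 5000 bp of the 5 HD-ZIP III genes (dark bars), by distance in kb from the low-coordinate end of each gene. H3K4me3 lies at 1 end of PHB, PHV, REV and ATHB15, while ATHB8 carries only H3K27me3, in 2 peaks in the gene and 1 on each side.

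The H3K4me3 peaks sat at 1 end of each gene. For PHB, which sets adaxial identity, the peak (TAIR10, chr2:14642950-14644420) was 1470 bp long and shared 1405 bp with the gene, 27.9% of the body. That of its closest relative PHV (chr1:10799710-10801170) was 1460 bp long and covered 27.8%. The peak of REV, which acts in lateral meristem formation and adaxial fate (chr5:24396950-24398510), was 1560 bp long and covered 29.3%. ATHB15, also called CORONA, which acts in the meristem and the vasculature, had a shorter peak (chr1:19413800-19414870) of 1070 bp, over 19.0% of the gene. The peak lay at the high-coordinate end of PHB, PHV and ATHB15 and reached 65, 77 and 106 bp beyond it, and at the low-coordinate end of REV, 30 bp beyond. The gene table gave no strand, so these ends are not named as starts. None of these peaks touched another annotated gene. With a median of 990 bp over all protein-coding genes with an H3K4me3 peak, those of PHB, PHV and REV were longer than 82.3%, 81.8% and 85.4% of them, and that of ATHB15 longer than 60.3%.

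Of the 4 members with an H3K4me3 peak, 0 were called, where 3.55% of 16065 protein-coding genes were. With peaks below the lower quartile of mean total signal left out, which all 4 members passed, 0.299% of 13053 genes were called. At PHB the total signal was 24294 (control) and 23042 (treat), a log2 ratio of -0.08. At PHV the pools had 31236 and 27939, with the lowest log2 ratio of the 4, -0.16. The 2 pools were closest at REV, which had 28344 and 28653 and the only ratio above 0, at 0.016. ATHB15 had 22535 and 21917, a log2 ratio of -0.04. The ratios of PHB, PHV and ATHB15 were a little below 0, as were those of 70.5% of all genes with a peak, whose median was -0.08. In the authors' deposited table the FDR was 0.647 for PHB, 0.3 for PHV, 0.916 for REV and 0.812 for ATHB15. The differences were at most 1.12-fold, and without replicates they cannot be set against an error.

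Per kb of peak, the control pool held 16527 at PHB, 21395 at PHV, 18169 at REV and 21061 at ATHB15. In the treat pool the values per kb were 15675, 19136, 18367 and 20483. By this measure the highest member was PHV (control) or ATHB15 (treat), and PHB was lowest in both pools. Their spread over replicates is unknown, so no neighbours in this order can be called different. The order also depends on the division by length, and total signal need not grow with length. In ZPR1, for example, H3K27me3 peaks of 670 and 100 bp had 7941 and 7984 in the control pool. Among all genes with an H3K4me3 peak, the total signal of PHV exceeded that of 75.7% (control) and 68.3% (treat), and REV that of 63.1% and 71.6%. PHB and ATHB15 lay lower, at 44.3% and 37.0% in the control pool, and none of the 4 was near either end of the range.

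**Figure D2:**
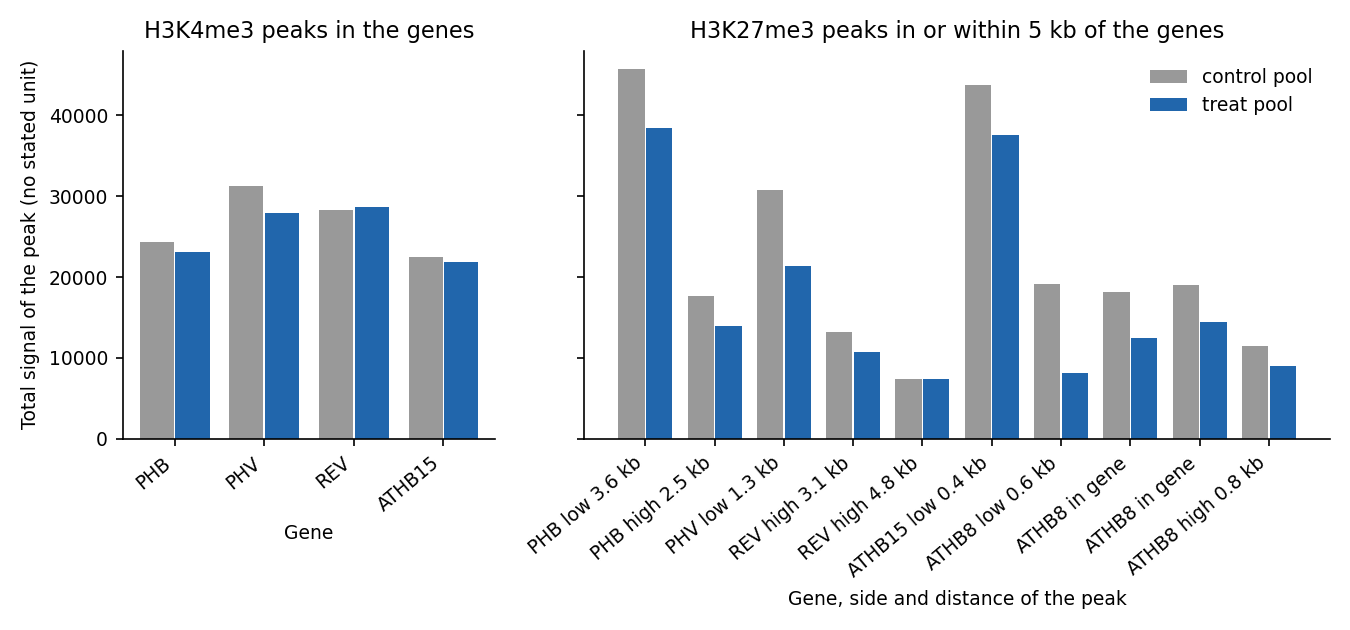
Total signal (no stated unit, 1 value per pool of 3 replicates, so no error bars) in the control pool (grey) and treat pool (blue). Left, the H3K4me3 peaks of PHB, PHV, REV and ATHB15; right, every H3K27me3 peak in or within 5000 bp of a member, of which 9 of 10 are lower in the treat pool, with the largest gap at the low side of ATHB8 (19176 against 8121).

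Peak height, the authors' value at the summit, gave a similar picture. PHV had the largest difference, with 5843 (control) and 4825 (treat), which is 1.21-fold. ATHB15 had 4054 and 3623, PHB 4059 and 3923, and REV 4634 and 4698. With this measure, too, 0 of 4 were called, against 2.08% of all genes. The authors also deposited a column named local loss, of which only the name is given. REV was the 1 member of 4 under 0.05 there, with a local loss FDR of 0.0375 in the authors' deposited table, where 31.1% of all genes with a peak were. No member was under 0.05 for local gain, where 14.8% of all genes were. The length marked at REV was 1560 bp (control) and 1440 bp (treat), and that of PHB went the other way, at 1380 and 1470 bp.

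ATHB8 stood apart in carrying H3K27me3 in the gene body. Its main peak (chr4:15867200-15868750) was 1550 bp long, shared 1450 bp with the high-coordinate part of the gene and had a total signal of 18998 (control) and 14463 (treat). The other peak (chr4:15863600-15864730) lay wholly in the gene and had 18153 and 12466. The log2 ratios were -0.39 and -0.54, and both together covered 48.6% of the gene. Neither passed the threshold, at an FDR of 0.422 and 0.309 per the authors' deposited table, so 0 of 1 member with an H3K27me3 peak was called, where 4.12% of 6798 genes were. The ratio of the main peak was below 0 like that of 73.0% of all genes with an H3K27me3 peak, whose median was -0.18, and 22.6% of them had a lower one. In total signal, ATHB8 exceeded 34.7% (control) and 27.1% (treat) of those genes.

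More H3K27me3 lay on both sides of ATHB8. A peak 598 bp from the low-coordinate end (chr4:15861980-15862740), on the neighbour AT4G32870, had 19176 (control) and 8121 (treat), a 2.36-fold difference. That was the largest ratio at any of the peaks near the family, with an FDR of 0.0641 per the authors' deposited table, and it did not pass. Of all nuclear H3K27me3 peaks, 8.13% had a log2 ratio as low. On the other side, 840 bp away, a peak of 2330 bp on no annotated gene had 11536 and 9056. The treat pool was therefore lower in all 4 H3K27me3 peaks in and around ATHB8, none of them called. The length marked in the main peak was 1540 bp (control) and 1350 bp (treat), and in the low-side peak 760 and 520 bp.

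The 4 members without H3K27me3 in the gene also had such peaks nearby. The closest was at ATHB15, where a peak of 4480 bp (chr1:19404760-19409240) on the neighbour AT1G52140 ended 447 bp from the gene, at the end opposite to its H3K4me3. It had 43761 (control) and 37530 (treat). PHV had a peak 1273 bp away (chr1:10793240-10794850), also beyond the end without H3K4me3 and on no annotated gene, with 30755 and 21406, a 1.44-fold difference. For PHB the nearest was 2525 bp away, with 17652 and 13991, on the long noncoding gene AT2G08675, and another lay 3582 bp off on the other side, with 45698 and 38471. REV had one at 3135 bp with 13169 and 10700, on AT5G60700, and one at 4845 bp with 7369 and 7455. Among 15143 genes with H3K4me3 only, the median distance to an H3K27me3 peak was 4223 bp, 10.8% were nearer than ATHB15 and 25.4% nearer than PHV.

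Over the whole family, 10 H3K27me3 peaks lay in the genes or within 5000 bp, and 9 of them were lower in the treat pool. Their log2 ratios ran from -1.24 to 0.017 with a median of -0.34. Of all nuclear H3K27me3 peaks, 60.9% were lower, with a median of -0.14. None of the 10 was called, where 8.53% of all H3K27me3 peaks were, and the FDR in the authors' deposited table ran from 0.0641 to 0.980. Peaks of the 2 marks side by side at a gene share its chromatin, and peaks of a neighbourhood are not independent of each other.

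**Figure D3:**
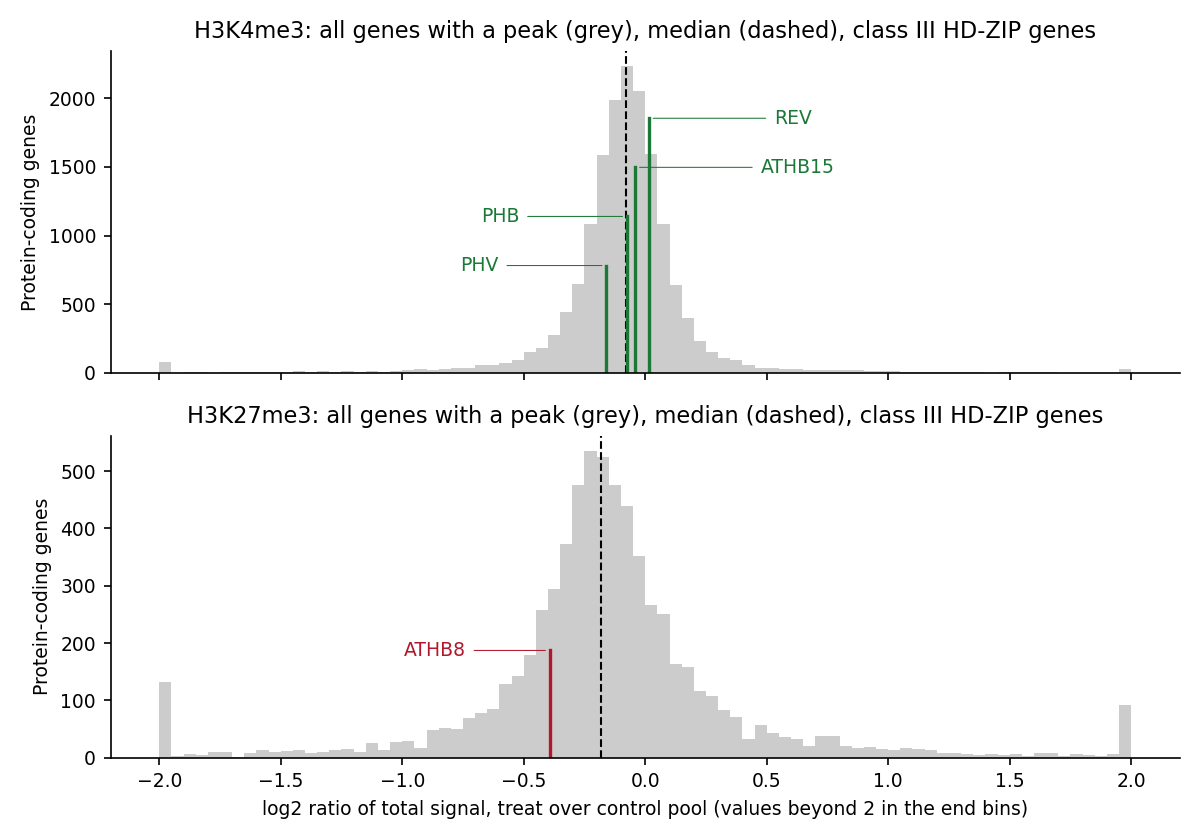
Number of protein-coding genes (grey bars) by log2 ratio of total signal, treat over control pool, for H3K4me3 (top) and H3K27me3 (bottom), with the median of all genes dashed; the height of a coloured line has no meaning. The H3K4me3 ratios of PHV, PHB, ATHB15 and REV (-0.16 to 0.016) lie around the median of -0.08, and the H3K27me3 ratio of ATHB8 (-0.39) lies below the median of -0.18.

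The family was set beside 8 lists with 46 other genes of the same pathway or protein class. In HD-ZIP IV genes, which share the START domain and act mainly in the epidermis, 13 of 16 members had an H3K27me3 peak and 5 of these also an H3K4me3 peak. The 3 with H3K4me3 only were HDG7, HDG11 and HDG12. Of the 5 HD-ZIP II genes, which include HAT3 and ATHB4, partners of HD-ZIP III in adaxial fate, 3 had both marks and ATHB2 and HAT2 had H3K4me3 only. The 3 homeobox classes thus differed under the overlap rule in how many members carried H3K27me3. The counts were 1 of 5 for HD-ZIP III, 13 of 16 for HD-ZIP IV and 3 of 5 for HD-ZIP II. Of all protein-coding genes, 24.8% carried it. The peaks of HAT3 and ATHB4 were short, at 520 and 630 bp. Their control signal exceeded only 7.94% and 12.5% of genes with such a peak. Where a peak had to cover 50% of the gene body, the counts were 0 of 5, 12 of 16 and 1 of 5. HD-ZIP II then lay close to HD-ZIP III. All of these are counts, and no test of the difference was made.

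**Figure D4:**
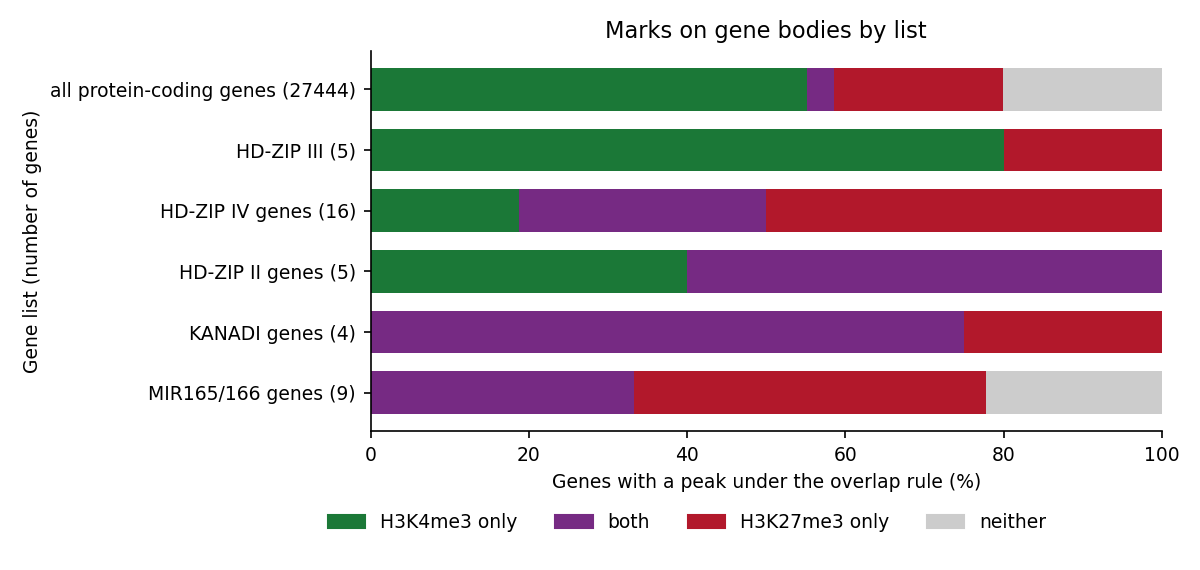
Share of genes (%) with an H3K4me3 peak only, both marks, an H3K27me3 peak only or neither under the overlap rule, for all protein-coding genes and for 5 lists with their number of genes. HD-ZIP III has 4 genes with H3K4me3 only and 1 with H3K27me3 only, while 3 of 4 KANADI and 3 of 9 MIR165 and MIR166 genes carry both marks. With peaks below the lower quartile of total signal left out, 0 of 4 KANADI and 2 of 9 MIR165 and MIR166 genes keep an H3K4me3 peak.

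Genes for miR165 and miR166, the microRNAs that target all 5 members, were marked mainly by H3K27me3. A peak covered MIR165A, MIR165B, MIR166A, MIR166B, MIR166C, MIR166E and MIR166G, 7 of 9 genes, and none covered MIR166D or MIR166F. MIR166A had 35193 (control) and 21229 (treat), MIR166B 33631 and 23436, and MIR166C 9932 and 4522. The treat pool was lower at all 7, with log2 ratios from -1.14 to -0.25, and 0 of 7 were called, against 8.53% of all H3K27me3 peaks. Of all nuclear H3K27me3 peaks, 60.9% were lower in the treat pool. MIR165A had 41702 and 33707, MIR165B 43031 and 31398, MIR166E 15945 and 10477, and MIR166G 44086 and 36997. MIR165B, MIR166A and MIR166C had a local loss FDR under 0.05 in the authors' deposited table, 3 of 7, where 13.5% of all H3K27me3 peaks did.

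H3K4me3 lay within the H3K27me3 peak at 3 of these genes, with 1170 bp shared at MIR166A, 1280 bp at MIR166B and 760 bp at MIR166E. MIR166E was the 1 called, higher in the treat pool, where 2.46% of all H3K4me3 peaks were called higher. Its peak (chr5:16774960-16775720) had 4722 (control) and 9050 (treat), 1.92-fold, at an FDR of 0.0393 per the authors' deposited table. This signal was low, and the peak was left out by the filter on low signal. The call was also lost at 2-fold, at an FDR under 0.001 and with 150 bp asked of short genes. MIR166A had 15098 and 17684 and MIR166B 15239 and 16408, neither called. In the authors' deposited table, the H3K4me3 peak of MIR166B had a local loss FDR of 0.0132, where 30.3% of all H3K4me3 peaks were under 0.05. That of MIR166E had a local gain FDR of 0.00986, where 15.2% were. At all 3 genes H3K4me3 was higher and H3K27me3 lower in the treat pool by value, but only the H3K4me3 of MIR166E passed the threshold.

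**Figure D5:**
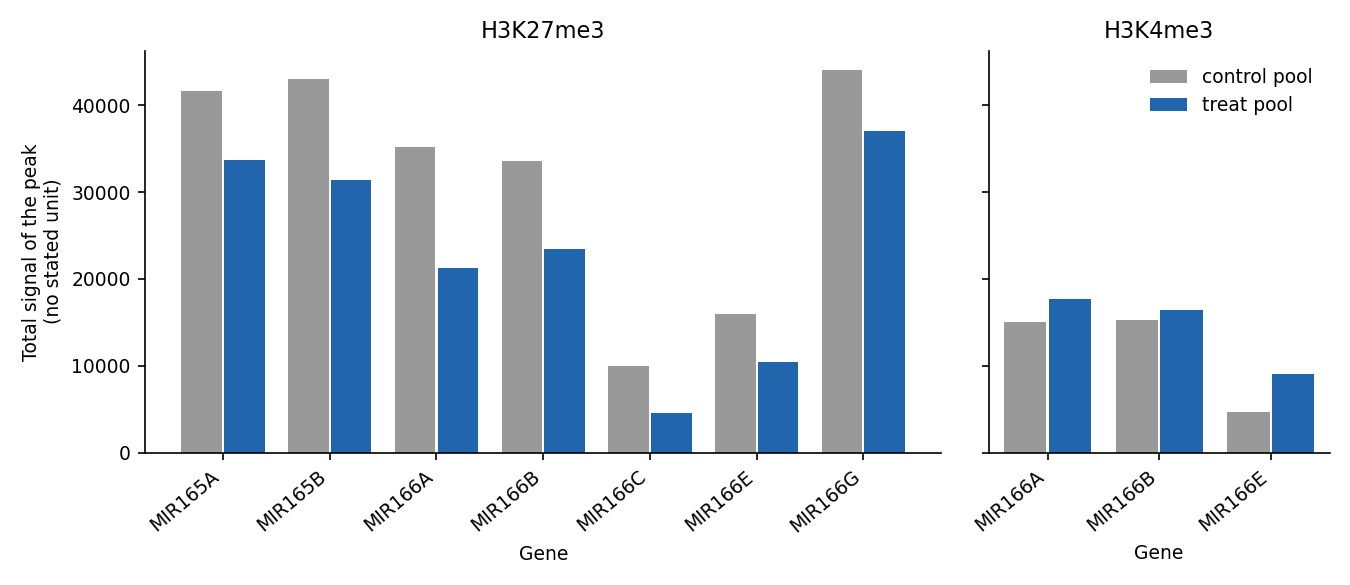
Total signal (no stated unit, 1 value per pool, no error bars) of the peaks that cover MIR165 and MIR166 genes, in the control pool (grey) and treat pool (blue), for H3K27me3 (left) and H3K4me3 (right). The treat pool is lower at all 7 genes with H3K27me3, as at 60.9% of all nuclear H3K27me3 peaks and 73.0% of protein-coding genes with such a peak. It is higher at all 3 with H3K4me3, of which MIR166E alone was called.

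The proteins that use these microRNAs had H3K4me3 only. AGO1, the main slicer of microRNA targets, had 28752 (control) and 29919 (treat). AGO10, which sequesters miR165 and miR166 and so protects HD-ZIP III transcripts, had 25551 and 21698, and 0 of 2 were called, against 3.55% of all genes with an H3K4me3 peak. A 70 bp H3K27me3 peak in AGO10 (chr5:17616000-17616070), too short for the overlap rule, had 96 (control, a very low value) and 9086 (treat). It was called higher where 1 bp sufficed, at an FDR of 0.00627 per the authors' deposited table, where 1.8% of genes were called higher under that rule.

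Among the LITTLE ZIPPER genes, which HD-ZIP III factors activate and which inhibit them in turn, ZPR1 alone carried marks. It had 7941 and 10592 in the control and treat pool for H3K27me3, and 8772 and 8500 for H3K4me3. These were low for both marks, and neither peak was called. A second H3K27me3 peak in ZPR1 (chr2:18733540-18733640), at 100 bp too short for the overlap rule, was lower in the treat pool instead. It had 7984 (control) and 2162 (treat), at an FDR of 0.104 per the authors' deposited table. ZPR2, ZPR3 and ZPR4 had no peak of either mark.

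All 4 KANADI genes, which encode the abaxial antagonists, carried H3K27me3, and 0 of 4 were called, where 4.12% of all genes with such a peak were. KAN1 had 58935 (control) and 51961 (treat), KAN2 32433 and 23563, KAN3 35319 and 27842, and KAN4 39208 and 35834. KAN1, KAN2 and KAN3 also had an H3K4me3 peak, wholly within that of H3K27me3, where the 4 HD-ZIP III genes with H3K4me3 had no H3K27me3. The H3K4me3 signals were 10160 and 12243 at KAN1, 11675 and 13831 at KAN2 and 8647 and 5923 at KAN3, with 0 of 3 called against 3.55% of all genes. Per kb of peak they had 6472 and 7798, 8108 and 9605, and 12716 and 8711, below the 4 HD-ZIP III genes by that measure. In total signal, without the division by length, they were below those 4 genes too.

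Of 4 other polarity genes, 1 had H3K27me3 only and 3 had H3K4me3 only. AS2, which promotes adaxial fate, lay in a 17860 bp H3K27me3 peak with 66878 (control) and 55069 (treat). Its partner AS1 had H3K4me3 only, with 23447 and 23906, as did ARF4, an abaxial auxin response factor, with 33785 and 30656. ARF3, another such factor, had 20462 and 28769, a 1.41-fold difference at an FDR of 0.038 per the authors' deposited table, under the fold limit. It was called higher by peak height and with no fold limit, where 0.697% and 1.25% of genes were called higher. A second H3K4me3 peak (chr2:14324430-14325350) shared 145 bp with ARF3, too little for the overlap rule, and was lower in the treat pool. It had 29953 (control) and 26621 (treat), at an FDR of 0.286 per the authors' deposited table. An H3K27me3 peak of 1260 bp at the end of ARF3 (chr2:14328950-14330210) shared only 28 bp with the gene and had 13433 (control) and 108 (treat, a very low value). It was called lower only where 1 bp sufficed or the gene was widened by 500 bp, where 3.21% and 2.98% of genes were called lower, at an FDR of 0.00318 per the authors' deposited table.

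DRN and DRNL, AP2-type factors that bind HD-ZIP III proteins, carried H3K27me3 only. DRN had 49156 and 39024 and DRNL 100462 and 80649, with 0 of 2 called against 4.12% of all genes with an H3K27me3 peak. Among the HD-ZIP II genes, 0 of 3 H3K27me3 and 0 of 5 H3K4me3 peaks were called, against 4.12% and 3.55% of all genes. For H3K4me3, HAT3 had 22704 and 22154, ATHB4 13341 and 9674, ATHB2 21371 and 19946, HAT1 14499 and 13785, and HAT2 10365 and 11209. HAT3 had an H3K27me3 signal of 8264 and 4144, ATHB4 9781 and 8017, and HAT1 18833 and 16013. The treat pool was lower in all 3 H3K27me3 peaks and in 4 of the 5 H3K4me3 peaks by value, of which HAT3 and HAT1 turned slightly higher with the median of all nuclear peaks set to 0.

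In the HD-ZIP IV list, 1 of 8 H3K4me3 peaks was called and 0 of 13 H3K27me3 peaks. HDG12 fell from 17601 (control) to 8952 (treat), 1.97-fold, at an FDR of 0.0152 per the authors' deposited table, on a peak that also lies on AT1G05357. Of all genes with an H3K4me3 peak, 2.36% were called lower. The call was lost at 2-fold, at an FDR under 0.001, by peak height, with the filter on low signal and where a peak had to cover 50% of the gene body. The H3K4me3 log2 ratios ran from -0.98 at HDG12 to 0.055 at ANL2, and those of H3K27me3 from -0.34 at HDG1 to 0.90 at HDG10, which had 10117 and 18834 and was not called. Over the 8 lists, 0 of 31 genes with an H3K27me3 peak and 2 of 25 with an H3K4me3 peak were called, against 4.12% and 3.55% of the protein-coding genes that had one. The 31 and 25 include 7 and 3 microRNA genes, with the called MIR166E among them, which the shares of protein-coding genes leave out. Counts this small, against shares this low, single out none of the lists.

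The genes most like each member were sought by the distance in log2(total signal + 1) over both pools. With 2 values per gene and 16064 candidates for H3K4me3, many genes lay close. They were ALDH3I1, SPL12 and PAI3 for PHB (distance at most 0.0094), and PP2A-3, RIN13 and AHG2 for PHV (at most 0.0060). PTAC16, ATWHY2 and POK were nearest to REV (at most 0.0048), the last 2 on 1 shared peak. GLCAK, HAG2 and HYH were nearest to ATHB15 (at most 0.0060). Among 6797 candidates for H3K27me3, TET14, PP2-A1 and PIP2E were nearest to ATHB8, at 0.031, 0.046 and 0.056. No member was among the 3 genes nearest to another. With 2 values per gene and so many candidates, that says nothing of how alike the members are.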

How the data were processed

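ChIP-seq of H3K27me3, H3K4me3 and H3 was listed for 18 samples in 6 groups of 3. Per the submitters' processing notes, the tool was Bowtie and the build TAIR10; for the peak caller and normalization, no statement was found in these sources. The tables the authors deposited held 10228 H3K27me3 and 16032 H3K4me3 peaks, with the authors' total signal and height as scores without a unit, for 2 pools named per the file headers. Log2 ratios were computed from both pools and equalled the log2 ratios the authors deposited. FDR values (q-values) were used as the authors deposited them, and the separate p-value columns were not used; the FDR medians were 0.380 and 0.448.

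Gene names and overlaps came from a TAIR10.1 gene table without strand, whose coordinates are not printed; all 51 listed genes were found. A gene shorter than 150 bp had to be covered whole, a choice made after the values were seen. The members and lists were chosen with earlier results of these data known. All members were named, every marked gene of 7 lists, and of HD-ZIP IV the called and extreme ones. The rest of that list that the text names, the short overlaps of AGO10, ARF3 and ZPR1 and the genes with H3K4me3 only were chosen after their values were seen. Links and calls were checked on simulated data with Python 3.11.15, numpy 2.4.6 and pandas 2.3.3. Alternatives changed the measure, link, thresholds, centring and filters. No sequence is shown.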

Additional observations from a re-analysis of the deposited data

How the results depend on the processing

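No member of the HD-ZIP III family was called in either mark with peak height, no fold limit, an overlap of 1 bp, 500 bp added or the centring; the stricter limits could not have added a call. A peak over 50% of the gene body left no member with a peak and so gave none. The thresholds and filters leave a member's ratio as it is by their construction, and the other overlap rules that gave one picked the same peaks. Peak height changed the direction of none of the 5 ratios, and summing over peaks in the gene altered that of ATHB8 alone, to -0.46. Setting the median of nuclear peaks to 0 turned the H3K4me3 log2 ratio of PHB to 0.0012 and that of ATHB15 to 0.037, by its construction. Over the 8 other lists, the 0 H3K27me3 calls became 2 with a 1 bp overlap (AGO10, ARF3) and 1 with 500 bp added (ARF3). The share of all genes, here and below of protein-coding genes without the microRNA genes, went from 4.12% to 5.01% and 4.14%. The 2 H3K4me3 calls (MIR166E, HDG12) became 0 at 2-fold, at an FDR under 0.001 and with peaks below the lower quartile of signal left out, where the share of all genes fell from 3.55% to 2.18%, 0.0498% and 0.299%. They became 1 where a peak had to cover 50% of the gene body (2.2% of all genes), and 1 with 150 bp (3.53%) asked of short genes too, an alternative added after seeing the data. No paired analysis was possible because the tables hold pools of replicates, which also means that leaving out single replicates could not be done. Depth is unknown, so it cannot be said which differences it would hide.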
